A study of Rattus norvegicus with 6 samples.

Results

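Genes of the contractile apparatus of smooth muscle cells and pericytes were examined in brain capillary RNA of SHRSP rats, the stroke-prone strain of the spontaneously hypertensive rat. The genes were Acta2, Actg2, Tagln, Cnn1, Tpm1, Tpm2, Myl9, Mylk, Myh11 and Cald1, and every probe set that the annotation of the rat array gives to 1 of them was taken. Of these 10 genes 9 had a probe set, 19 probe sets in all among the 8799 of the array, and Mylk had none in the annotation used. Of the 19 probe sets 17 passed the filter on low values and were tested among 5244. Another 4 probe sets are annotated to Acta2 and the cardiac actin gene Actc1 together and were kept apart.

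The rats were 6 weeks old and formed 3 groups with 2 arrays each. ACEI denotes lisinopril, an inhibitor of angiotensin-converting enzyme, at 6 mg/kg per day, and ARB denotes olmesartan, a blocker of the angiotensin type 1 receptor, at 4 mg/kg per day by mouth. The third group is labelled control. The label shared by all samples also names 1% NaCl, and the sources used here leave unsaid whether all rats or the controls alone received it, and how many rats made up a sample. With 2 arrays per group, p-values measure only the spread between these samples, which may be technical. A capillary preparation holds endothelium, pericytes and remnants of larger vessels, so fewer mural cells and less RNA per mural cell cannot be told apart.

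Smooth muscle cells of arterioles and, to a lesser degree, pericytes of capillaries narrow a vessel by sliding actin filaments past myosin. Acta2 and Actg2 encode the smooth muscle actins that form the thin filaments. Tropomyosins, calponin, caldesmon and transgelin bind to these filaments, and Myh11 encodes the smooth muscle myosin heavy chain. Calcium and calmodulin activate the myosin light chain kinase, which phosphorylates the regulatory light chain encoded by Myl9 and starts contraction. Angiotensin II is a constrictor that acts through this route by the type 1 receptor, and serum response factor with its partner myocardin drives many of these genes through CArG boxes in their promoters.

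The arrays were not equally alike, and the contractile genes shared in this. Values are the deposited intensities, which are on a linear scale, and a log2 value is log2 of the intensity plus 90. Per the file headers, the arrays were run on 2 days, control 1 with ACEI 1 first and the other 4 later. Of the 17 tested probe sets 10 differed over 2-fold between the 2 control arrays, against 34.5% of all 5244. Only 3 did so between the ACEI arrays (17.8% of all) and 4 between the ARB arrays (15.2%). The array's control probe set at the 3′ end of beta-actin, the non-muscle actin of all cells, read 24581 on control 1 and 22165 and 25420 with ACEI, but 2329 on control 2 and 5257 and 5662 with ARB. The ratio of its 3′ to its 5′ probe set, a measure of how complete the labelled RNA was, came to 3.15 for control 2, to 2.05 and 1.65 for ARB, and to 1.04 to 1.35 for the remaining 3. The same ratio for Gapdh was 7.31 on control 2 and between 0.933 and 1.59 elsewhere. The part of these array differences in the results below was not tested. As to the tissue, 14 endothelial markers and 12 mural cell markers outside the contractile apparatus passed the filter. Their summed intensities were 84951 and 152644 for endothelium on the controls and 72008 to 87007 on the treated arrays, and 18799 to 23641 for mural cells on all arrays. Of the endothelial sums Slco1a4 and Slc2a1 held 17074 and 33691 on control 1, and 79016 and 66763 on control 2. Single markers varied more: 11 of the 14 endothelial and 5 of the 12 mural markers differed over 2-fold between the controls. Of the 14 and the 12, 11 and 9 were higher on control 1.

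RAS blockade versus control set the mean of both drugs against the control arrays, and each drug was also compared on its own. At the gene level, where each gene is represented by its brightest probe set (for Myl9, S77900_g_at), 8 of the 9 contractile genes were lower with RAS blockade, with a median log2 difference of -0.66, while 43.3% of all 3186 genes were lower and their median was 0.10. With ACEI 8 of 9 were lower (median -0.72, against 55.6% of all genes and a median of -0.07), and with ARB 7 of 9 (median -0.38, against 41.6% and 0.17). Cald1 was higher in all 3 comparisons, and Tpm1 was higher with ARB. At an unadjusted p under 0.05, 2 of the 9 genes were lower with RAS blockade (2.32% of all genes), 3 with ACEI (1.63%) and 1 with ARB (4.58%), and 0 were higher, where 2.79%, 0.879% and 11.6% of all genes were. The picture was less uniform over probe sets: 10 of 17 were lower with RAS blockade (40.4% of all 5244), 10 with ACEI (53.1%) and 13 with ARB (41.9%), with medians of -0.32, -0.32 and -0.38 against 0.13, -0.04 and 0.18 over all. These comparisons share the same 2 control arrays. The counts of lower probe sets for RAS blockade, ACEI and ARB were 9, 8 and 9 without control 1, where Tpm2 had no value. They were 13, 14 and 12 without control 2. The shares of all probe sets lower in these fits were not counted, so these counts have no background beside them.

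In limma 0 of the 17 probe sets passed an adjusted p of 0.05 in any comparison, as did 0.0% of all 5244 probe sets. At an unadjusted p under 0.05, 2 were lower with RAS blockade and 0 were higher, where 2.02% of all were lower and 3.05% higher. With ACEI 3 were lower and 1 was higher, where 1.39% and 1.2% of all were. With ARB 1 was lower and 0 were higher, where 4.69% and 12.6% of all were. All 4 treated arrays lay below both control arrays for 2 of the 17 probe sets, against 3.72% of all probe sets, and above both for 0, against 4.63%. The 2 were 1 probe set each of Acta2 and Tagln. Both ACEI arrays lay below both controls for 5 probe sets and above for 2, where 11.9% and 11.6% of all did, and both ARB arrays for 6 and 3, where 16.8% and 33.4% did. Between the drugs 8 of 17 were lower with ARB than with ACEI (43.5% of all), and at an unadjusted p under 0.05 2 were lower and 0 higher, where 6.71% and 15.6% of all were. Both ARB arrays lay below both ACEI arrays for 5 probe sets (25.3% of all) and above for 7 (37.1%).

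**Figure D1:**
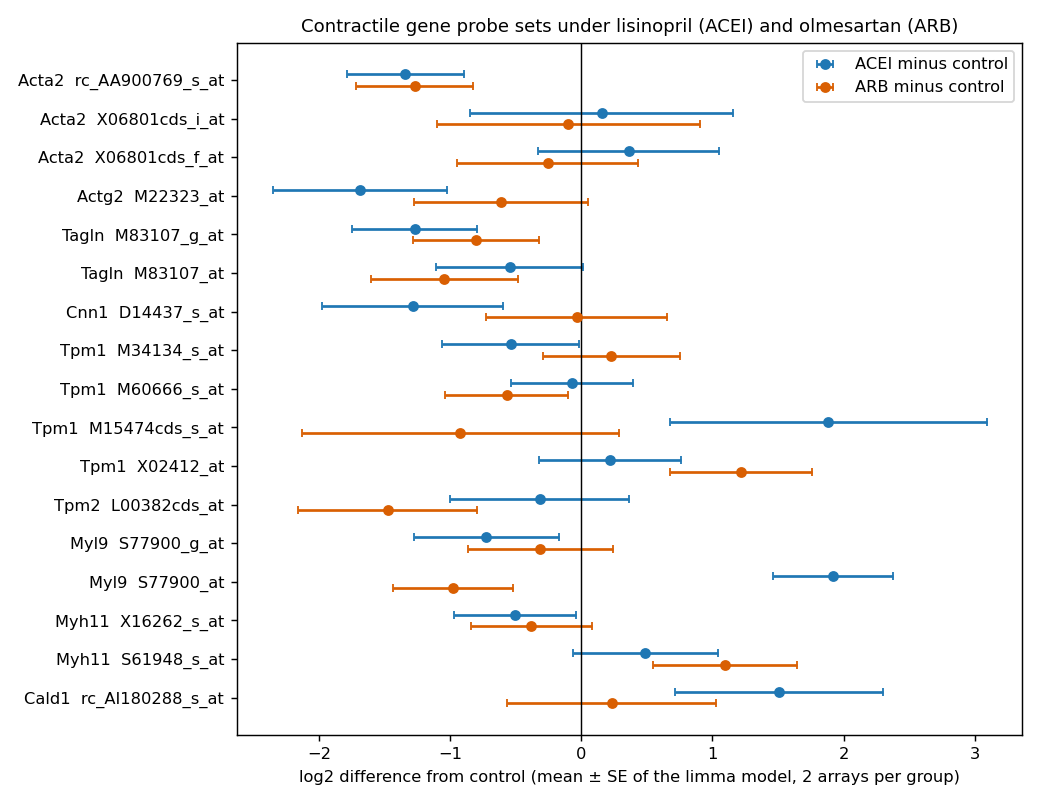
The log2 difference from control (horizontal axis) of each of the 17 tested probe sets, as the mean ± SE of the limma model with 2 arrays per group, for ACEI in blue and ARB in orange. The first Acta2 probe set lies near -1.3 with both drugs, the other Acta2 probe sets lie near 0, and the second Myl9 probe set lies at 1.92 with ACEI and at -0.98 with ARB.

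Acta2, the smooth muscle alpha-actin, gave different answers by probe set. The brightest, rc_AA900769_s_at, read 19511 and 23120 on the controls, 9605 and 7200 with ACEI and 8712 and 8764 with ARB. All treated arrays lay below both controls, and the ACEI and ARB arrays overlapped. The difference with RAS blockade was -1.31 ± 0.39 (2.48-fold lower, unadjusted p = 0.00905 and adjusted p = 0.863 in limma). It was -1.34 ± 0.45 with ACEI (adjusted p = 0.992) and -1.27 ± 0.45 with ARB (adjusted p = 0.238). The RAS blockade difference ran from -1.53 to -1.01 over the alternatives. Within run days, ACEI minus control was -1.02 on the first day and -1.67 on the later day, and ARB minus control, possible on the later day alone, was -1.39.

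The other probe sets of Acta2 did not share this pattern. X06801cds_i_at read 5584 and 488 on the control arrays, 3472 and 1050 with ACEI and 1281 and 1997 with ARB. X06801cds_f_at read 2881 and 906 on the controls, 3681 and 1204 with ACEI and 1423 and 1280 with ARB. In the maker's naming i, f and s mark probe sets that are not unique to a transcript in full: i with some probes left out, f shared in a gene family and s shared by several transcripts. Both were lower on control 2 than on control 1, with log2 differences of -3.30 and -1.58, while that of rc_AA900769_s_at was 0.24, and for both the groups overlapped. Their RAS blockade differences were 0.03 ± 0.87 and 0.05 ± 0.60. Without control 1 these became 1.68 and 0.84, and without control 2 they became -1.62 and -0.74. The 3 probe sets of Acta2 thus shared a direction without control 2, at -1.19, -1.62 and -0.74, but not with all arrays.

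The gap between the brightest Acta2 probe set and each of the others was compared directly, as a log2 difference per array. The gap to X06801cds_f_at was 2.72 and 4.54 on the control arrays and 1.36, 2.49, 2.54 and 2.69 on the treated arrays. Every treated array lay below both controls by this measure, with a mean change of -1.36 and p = 0.0667 in an exact two-sided permutation test, the smallest p that its 15 splits allow. The change was -1.015 after quantile and -1.063 after cyclic loess normalization (exact permutation p = 0.2 for each). It was -1.378 with no offset (exact permutation p = 0.133) and -1.315 with an offset equal to the median (p = 0.0667 in the same test). Without control 2 the change was -0.45. The gap to X06801cds_i_at was 1.79 and 5.33 on the controls and between 1.44 and 2.68 on the treated arrays, with a change of -1.34 (exact permutation p = 0.4) that became 0.43 without control 2. Across the 6 arrays, which share group and run day, the 2 coding-sequence probe sets had a Pearson correlation of 0.893 with each other and of -0.03 and -0.004 with rc_AA900769_s_at.

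**Figure D2:**
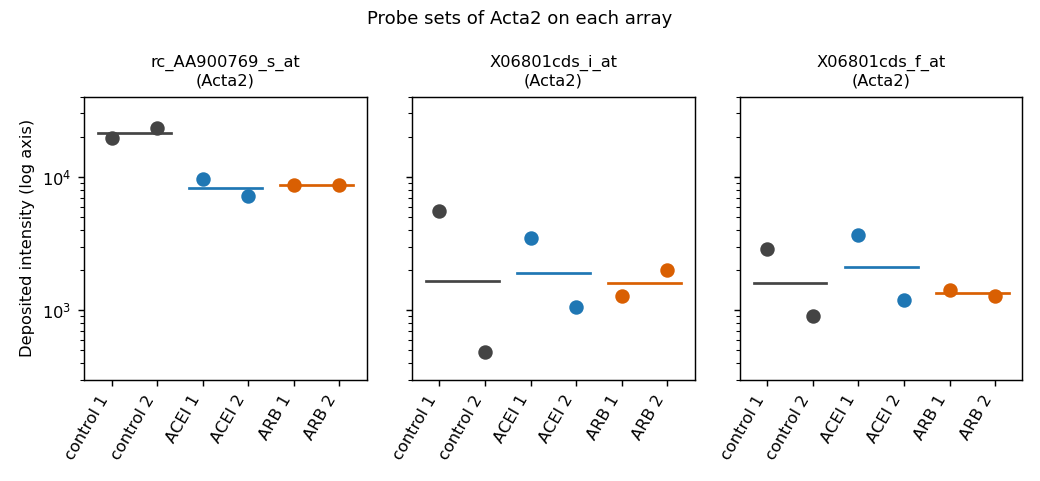
Deposited intensity of the 3 Acta2 probe sets on each of the 6 arrays, on a log axis, with points for arrays and lines for the geometric mean of each group (control grey, ACEI blue, ARB orange). In the left panel the controls at 19511 and 23120 stand above all treated arrays, whereas in the middle and right panels the control arrays lie far apart.

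The 4 probe sets annotated to Acta2 and Actc1 together differed among themselves. X80130cds_i_at read 901 and 661 on the controls, 983 and 340 with ACEI and 2202 and 2217 with ARB, an ARB minus control difference of 1.41 ± 0.55 (adjusted p = 0.257 in limma). X80130cds_f_at read 1238 and 210 on the controls and between 597 and 1008 on the treated arrays. The other 2 lay below the filter and were highest on the ARB arrays, at 472 and 446 for rc_AI104567_g_at, against 125 and 83.4 on the controls.

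The promoter of Acta2 is shown because serum response factor binds CArG boxes there, and that of the related actin Actg2 for comparison. Both are the 250 bases before the transcription start in RefSeq's table for build GRCr8, printed 5′ to 3′. A CArG box was searched as CC, 6 letters of which at most 1 was not A or T, and GG. The box is its own reverse complement in this form, so that 1 scan covers both strands. Matches are in capitals. The Acta2 stretch is chr1:241172504-241172753 on the minus strand and the Actg2 stretch is chr4:117594040-117594289 on the minus strand.
Acta2: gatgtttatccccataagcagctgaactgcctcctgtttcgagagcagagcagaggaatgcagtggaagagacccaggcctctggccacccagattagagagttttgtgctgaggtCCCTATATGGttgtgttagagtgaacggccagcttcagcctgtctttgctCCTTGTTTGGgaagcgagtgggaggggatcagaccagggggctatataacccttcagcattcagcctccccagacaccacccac
Actg2: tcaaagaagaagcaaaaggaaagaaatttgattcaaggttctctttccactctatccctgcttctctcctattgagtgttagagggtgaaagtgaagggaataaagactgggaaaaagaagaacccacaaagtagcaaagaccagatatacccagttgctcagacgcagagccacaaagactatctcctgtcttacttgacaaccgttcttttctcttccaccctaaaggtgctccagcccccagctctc
The Acta2 stretch held 2 matches, CCCTATATGG and CCTTGTTTGG, which begin 134 and 84 bases before the start. At least 1 match was found in 8.08% of all 33469 stretches of this length, and at least 2 in 0.693%. Of the 8 stretches of the 7 contractile genes in the table (Acta2, Actg2, Cald1 with 2 stretches, Cnn1, Mylk, Tpm1 and Tpm2) only that of Acta2 held a match. A match is a description of the sequence, and no match says only that these letters are not in this window.

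Actg2, the gamma smooth muscle actin, read 600 and 485 on the control arrays, 160 and 62.1 with ACEI, and 121 and 713 with ARB. Both ACEI arrays lay below both controls, while the ARB arrays lay on either side of them. The difference was -1.69 ± 0.66 with ACEI (3.23-fold lower, unadjusted p = 0.0328, adjusted p = 0.992 in limma) and -0.61 ± 0.66 with ARB. The ARB value was 0.35 without ARB 1 and -1.58 without ARB 2, so that its sign depended on which ARB array was kept. The RAS blockade difference was -1.15 ± 0.58, and -0.67 without ARB 1. Some of these values are low. ACEI 2, at 62.1, lay near that array's lower quartile of 54.3, and ARB 1, at 121, lay below its lower quartile of 156. The ACEI difference depended on the offset, at -2.44 with no offset and -0.94 with an offset equal to the median.

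Tagln encodes transgelin (SM22-alpha), an actin-binding protein of differentiated smooth muscle, and had 2 probe sets that are named for the same sequence. M83107_g_at read 4516 and 7698 on the controls, 2189 and 2616 with ACEI and 3096 and 3601 with ARB. All treated arrays were below both controls. The RAS blockade difference was -1.04 ± 0.41 (2.05-fold lower, unadjusted p = 0.0349, adjusted p = 0.863 in limma), with -1.27 ± 0.48 for ACEI and -0.80 ± 0.48 for ARB. Without control 2 the RAS blockade difference was -0.66. M83107_at read 4083 and 1467 on the controls, 1458 and 1882 with ACEI and 1138 and 1152 with ARB. Its difference was -0.80 ± 0.49, so the sign was shared, but it was -0.08 without control 1 and -1.51 without control 2. Across the arrays the Tagln probe sets had a Pearson correlation of 0.18.

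Cnn1, calponin, which restrains actomyosin in smooth muscle, read 432 and 1026 on the controls, 249 and 199 with ACEI and 295 and 1346 with ARB. The ACEI arrays lay below the controls and the ARB arrays spanned them. The difference was -1.29 ± 0.69 with ACEI and -0.04 ± 0.69 with ARB, where it was 0.91 without ARB 1 and -0.99 without ARB 2. With ACEI it was -0.74 without control 2. ARB minus ACEI was 1.25 ± 0.69 for Cnn1 (adjusted p = 0.314 in limma) and 1.08 ± 0.66 for Actg2 (adjusted p = 0.367), and without ARB 2 these were 0.30 and 0.11. In both genes ARB 2 was the higher of the ARB pair, with 1346 against 295 and 713 against 121.

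Myl9, the regulatory light chain of smooth muscle myosin, had a probe set whose ACEI and ARB arrays lay on opposite sides of the controls. S77900_at read 1712 and 2372 on the controls, 6937 and 8922 with ACEI and 938 and 1017 with ARB. The groups did not overlap, with ACEI highest and ARB lowest. ARB minus ACEI was -2.90 ± 0.46 (7.46-fold lower, unadjusted p = 0.00017, adjusted p = 0.112 in limma). ACEI minus control was 1.92 ± 0.46 (3.78-fold higher, unadjusted p = 0.00262, adjusted p = 0.992) and ARB minus control was -0.98 ± 0.46. Without either ACEI array or either ARB array, ARB minus ACEI stayed between -3.08 and -2.72. The value of -3.08 came without ACEI 1. Within the later run day alone it was also -3.08, since that day holds the same ACEI and ARB arrays. The adjusted p lay below 0.05 under some alternatives. It was 0.0172 with only the ACEI and ARB arrays in the fit, where 7.74% of all probe sets were called, 0.0187 without control 1 (6.37% called), 0.0199 with array weights (9.88%), 0.0222 without control 2 (6.03%) and 0.0499 with an offset equal to the median (0.0763%). It lay between 0.0571 and 0.647 over the other alternatives.

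The other Myl9 probe set did not show this contrast, although its name points to the same sequence. S77900_g_at read 3534 and 9045 on the controls, 2920 and 3938 with ACEI and 4441 and 4648 with ARB. ACEI minus control was -0.72 ± 0.55, but -0.058 without control 2, and ARB minus control was -0.31 ± 0.55. The RAS blockade difference was -0.52 ± 0.48, and 0.15 without control 2. The log2 gap of S77900_g_at over S77900_at was 1.01 and 1.89 on the controls, -1.22 and -1.16 with ACEI and 2.14 and 2.10 with ARB. Both ACEI arrays thus lay below the other 4 by this gap.

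**Figure D3:**
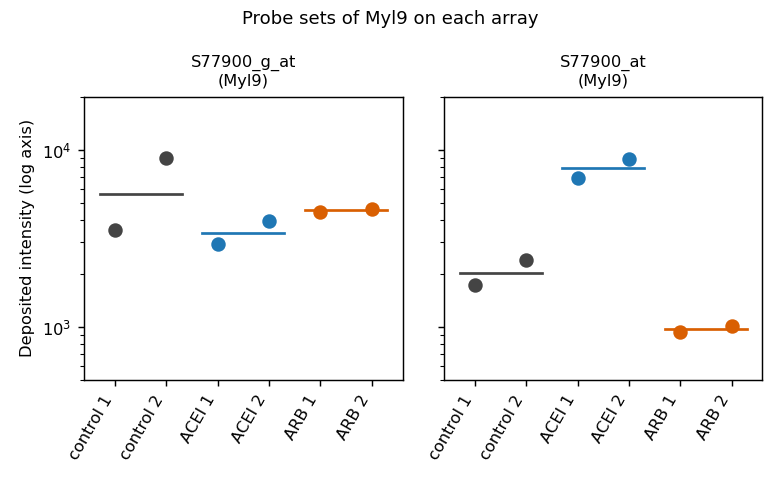
Deposited intensity of the 2 Myl9 probe sets on each array, on a log axis, with lines for the geometric mean of each group (control grey, ACEI blue, ARB orange). In the right panel ACEI stands at 6937 and 8922 and ARB at 938 and 1017, while in the left panel the highest array is control 2 at 9045.

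Myh11, the smooth muscle myosin heavy chain, had 3 probe sets. X16262_s_at read 2924 and 1785 on the controls and between 1576 and 1797 on the treated arrays, which form a narrow band at the level of control 2. The RAS blockade difference was -0.44 ± 0.40, and -0.10 without control 1. S61948_s_at read 261 and 65.2 on the controls, 277 and 202 with ACEI and 305 and 542 with ARB, a difference of 0.79 ± 0.48 that was 0.20 without control 2. X16261_i_at was below the filter, with at most 140 on any array. The tested pair had opposite signs, and neither had an unadjusted p under 0.05 in any comparison.

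Tpm1, a tropomyosin that lies along the actin filament and comes in many splice forms, had 5 probe sets. The sources used here do not say which splice form each detects. M34134_s_at and M60666_s_at gave small differences. The first read 5541 and 6610 on the controls, 6257 and 2727 with ACEI and 6766 and 7461 with ARB, and the second 6464 and 4387, 4276 and 5997, and 3679 and 3442. Their RAS blockade differences were -0.16 ± 0.45 and -0.32 ± 0.41, the first of which was 0.11 after quantile normalization. X02412_at read 236 and 615 on the controls, 552 and 394 with ACEI and 798 and 1313 with ARB, so that both ARB arrays lay above all others. Its ARB minus control difference was 1.22 ± 0.54 (adjusted p = 0.294 in limma), and 0.66 without control 1. The remaining probe set, rc_AI144767_s_at, was below the filter, at 81.1 to 282 over all arrays.

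M15474cds_s_at of Tpm1 varied over a wide range, in parallel with the beta-actin control. It read 7101 on control 1, 7414 and 3912 with ACEI, but 217 on control 2 and 809 and 594 with ARB. Its log2 values had a Pearson correlation of 0.975 with those of the beta-actin 3′ control over the 6 arrays, given as a description. ARB minus ACEI was -2.81 ± 1.21 (unadjusted p = 0.0473, adjusted p = 0.219 in limma), and -1.44 in a fit with run day. ACEI minus control was 1.88 ± 1.21, but 4.16 without control 1 and -0.39 without control 2. ARB minus control was -0.92 ± 1.21, but 1.35 without control 1 and -3.20 without control 2. Both signs depended on which control array was kept.

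**Figure D4:**
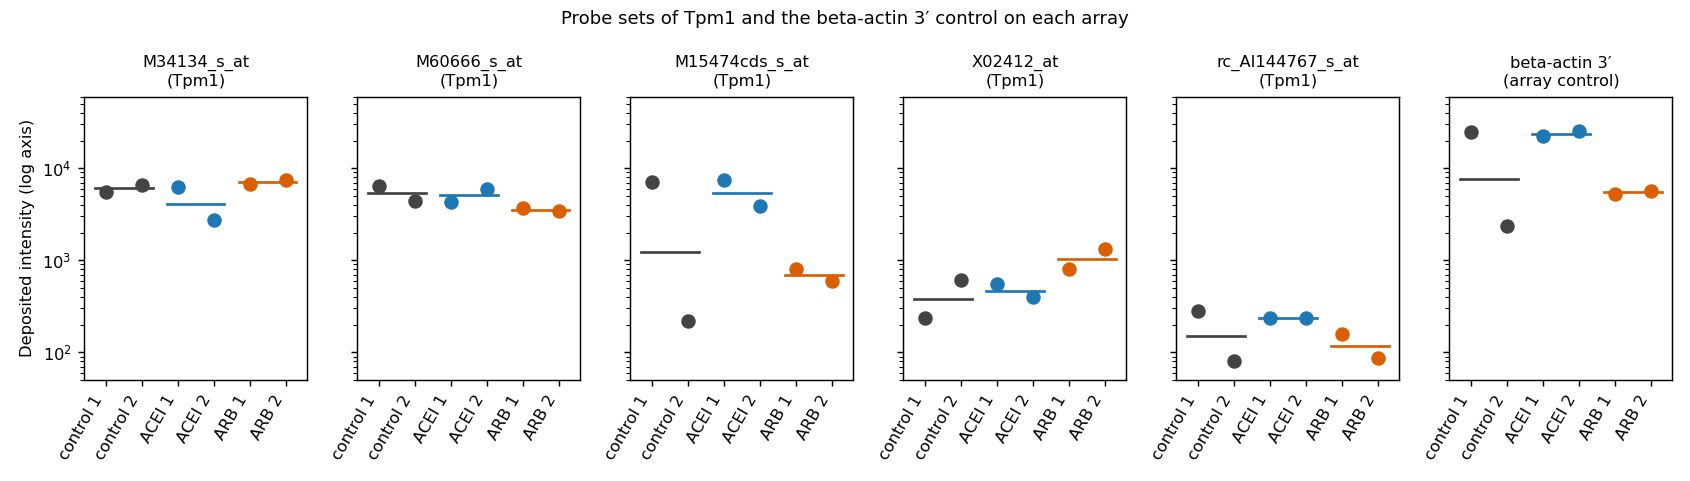
Deposited intensity of the 5 Tpm1 probe sets and, at the right, of the array's beta-actin 3′ control on each array, on a log axis, with lines for the geometric mean of each group (control grey, ACEI blue, ARB orange). The third panel and the rightmost panel have the same shape, with control 2 and both ARB arrays low, at 217, 809 and 594 for the third panel.

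Tpm2, beta-tropomyosin, read 762 and 262 on the controls, 234 and 506 with ACEI and 243 and 26.0 with ARB. Its RAS blockade difference was -0.90 ± 0.59, which was -1.54 without control 2 and -0.52 without ARB 2. With ARB it was -1.48 ± 0.68, and -0.72 without ARB 2, whose value lay below that array's lower quartile of 159. Cald1, caldesmon, which links actin and myosin and inhibits their sliding, read 560 and 32.9 on the controls, 898 and 564 with ACEI and 412 and 129 with ARB. The values of control 2 and ARB 2 lay below the lower quartiles of these arrays, 68.5 and 159. The RAS blockade difference was 0.87 ± 0.69, which was 2.07 without control 1 and -0.33 without control 2. The log2 values of Cald1 had a Pearson correlation of 0.884 with the beta-actin control over the 6 arrays, and those of the 17 probe sets ranged from -0.868 (S77900_g_at of Myl9) to 0.975.

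The other genes of the contractile route were described from lists chosen with earlier results of these data known. All values are at 1 probe set per gene, and 0 genes of any list passed an adjusted p of 0.05 in limma. Of 12 tested genes of myosin light chain regulation 5 were lower with RAS blockade (median 0.21, against 43.3% of all genes). At an unadjusted p under 0.05 0 of them were lower (2.32% of all) and 1 was higher (2.79%). The higher gene was Dapk3, a kinase that can phosphorylate the light chain and its phosphatase. It read 1640 and 1583 on the controls, 1903 and 3208 with ACEI and 9864 and 10139 with ARB, a difference of 1.58 ± 0.41 with RAS blockade and of 2.57 with ARB. Its other probe set read 1089 and 35.2 on the controls and was at 2.80 with RAS blockade, but at 1.18 without control 2. Myl12a, a non-muscle regulatory light chain, was at -0.81 ± 0.44 (other probe set -0.53).

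Among constrictor receptors and calcium handling genes 9 of 17 were lower with RAS blockade (median -0.05, against 43.3% of all genes). At an unadjusted p under 0.05, 0 were lower and 0 higher, where 2.32% and 2.79% of all genes were. The sodium-calcium exchanger Slc8a1 was at -0.80 ± 0.60, the plasma membrane calcium pump Atp2b1 at 0.71 ± 0.56 (-0.29 without control 2), and the alpha-1B adrenergic receptor Adra1b at 0.70 ± 0.40. The other 4 probe sets of Slc8a1 and the other 2 of Atp2b1 lay below the filter. Of 12 other mural cell markers 7 were lower (median -0.03, against the same 43.3%), and 0 had an unadjusted p under 0.05. Here the contractile genes and the markers that do not belong to the contractile apparatus had different medians, at -0.66 and -0.03, a difference that was not tested. Anpep, an aminopeptidase of pericytes, was at 0.91 ± 0.50 (another probe set at -1.08), the collagen-binding integrin subunit Itga1 at -0.60 ± 0.45, and the gap junction gene Gja4 at 0.59 ± 0.77 (-1.01 without control 2).

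Of 14 non-muscle actin cytoskeleton genes 6 were lower with RAS blockade (median 0.05, against 43.3% of all genes). At an unadjusted p under 0.05, 1 was lower (2.32% of all). With ACEI 6 of 14 were lower (median 0.62, against 55.6% of all genes) and with ARB 11 of 14 (median -0.58, against 41.6%). Tln1, talin, which ties integrins to actin, read 3530 and 2063 on the controls, 1932 and 1967 with ACEI and 555 and 787 with ARB, a difference of -1.17 ± 0.42. Tpm3 was at -0.82 ± 0.91 (other probe sets at 0.63 and 0.87) and Tpm4 at 0.73 ± 0.73 (other probe set 0.43). Without control 1 Tpm3 was at 0.87, and without control 2 Tpm4 was at -0.73.

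Genes of striated muscle, the other tissue with an actin and myosin apparatus, were listed for comparison. Of 21 with a probe set 7 passed the filter, 1 of them lower with RAS blockade (median 0.32, against 43.3% of all genes). The drugs differed here: with ACEI 6 of 7 were lower (median -0.09, against 55.6% of all genes). With ARB 1 of 7 was lower (median 1.13), and 3 were higher at an unadjusted p under 0.05, where 41.6% of all genes were lower and 11.6% higher at that p. The cardiac light chain Myl2 read 442 and 325 on the controls, 470 and 258 with ACEI and 1262 and 969 with ARB, a difference of 0.63 ± 0.42 with RAS blockade, and the other light chain Myl1 was at 0.35 ± 0.40 and the troponin gene Tnni3 at 0.44 ± 0.52 (-0.41 without control 1). Both ARB arrays also had the highest median intensity, at 487 and 496 against 246 to 354 on the other arrays.

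Among regulators of smooth muscle genes 6 of 13 were lower with RAS blockade (median 0.04, against 43.3% of all genes). At an unadjusted p under 0.05, 2 were lower and 1 higher, where 2.32% and 2.79% of all genes were. Tgfb3, a growth factor that induces contractile genes, was at -1.38 ± 0.57 (other probe set 0.44). Tgfb1, of the same family, was at 1.57 ± 0.81, with 78.4 on control 2 and 1224 to 2027 on the other 5 arrays, and was at -0.087 without control 2. Pdgfb, the mitogen that recruits pericytes, read 501 and 69.7 on the controls, 1433 and 528 with ACEI and 1542 and 529 with ARB, a difference of 1.68 ± 0.68, and of 0.74 without control 2 (other probe set -0.17).

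**Figure D5:**
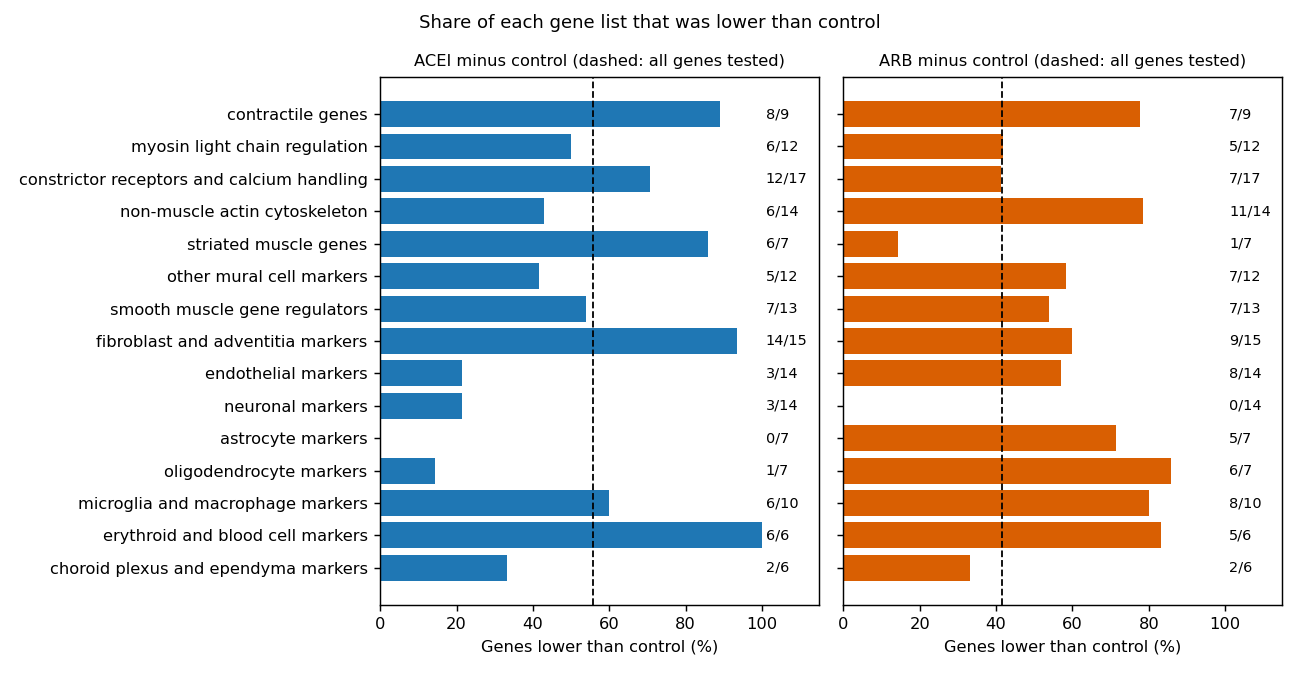
Share of the tested genes of each list that were lower than control (horizontal axis, percent), with ACEI in the left panel and ARB in the right, the counts beside the bars and a dashed line at the share of all 3186 genes (55.6% and 41.6%). The contractile genes reach 8 of 9 and 7 of 9, and the other mural cell markers 5 of 12 and 7 of 12.

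Markers of other cells differed between the arrays as well. The counts stand against 43.3% of all genes lower with RAS blockade, 55.6% lower with ACEI, and 2.32% lower at an unadjusted p under 0.05 with RAS blockade. Of 15 fibroblast and adventitia markers 13 were lower with RAS blockade (median -0.34, 5 lower at an unadjusted p under 0.05), and with ACEI 14 of 15. Their summed intensity was 60322 and 114895 on the controls, 55307 and 46115 with ACEI and 62967 and 61001 with ARB. That of the contractile genes was 38379 and 50063 on the controls, 24087 and 19402 with ACEI and 25883 and 28365 with ARB. Of these sums the brightest Acta2 probe set alone held 19511 and 23120 on the controls and 7200 to 9605 on the treated arrays. The other Acta2 probe sets do not enter the sums. All 6 erythroid and blood cell markers and 8 of 10 microglia and macrophage markers were lower with RAS blockade as well. Of 14 neuronal markers 1 was lower, and of 14 endothelial markers 5. Choroid plexus and ependyma markers summed to 269328 and 266228 on the ARB arrays and to 67715 to 147627 on the others. Ttr held 202386 and 201474 of the sums with ARB, and 2 of the 6 markers were lower with ARB. Of 7 astrocyte markers 1 and of 7 oligodendrocyte markers 4 were lower with RAS blockade. No probe set of any list was listed at 0 on any array. The part of these cells in the contractile gene differences was not tested.

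The genes whose log2 values over the 6 arrays were most like those of the brightest Acta2 probe set, among 3185 other genes at 1 probe set each, were Spp1 (Pearson correlation 0.994), Alox15 (0.973), Anxa1 (0.931), Rpl22 (0.923) and Eif4ebp1 (0.917). Spp1 encodes the matrix protein osteopontin, Alox15 a lipoxygenase, Anxa1 the lipid-binding annexin A1, Rpl22 a ribosomal protein and Eif4ebp1 an inhibitor of translation. All 5 were lower on each treated array than on both controls. Their RAS blockade differences were -3.73 ± 0.42 for Spp1 and -3.70 ± 0.46 for Alox15, against -1.36 ± 0.41, -1.25 ± 0.45 and -0.99 ± 0.42 for the others. Alox15 and Anxa1 had 1 other probe set each and Eif4ebp1 had 2, whose values are not given here. The 5 genes were picked by likeness to a probe set that was itself lower on all treated arrays. With 6 arrays in 3 groups a high correlation is a description of these arrays.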

How the data were processed

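The authors deposited 1 intensity per probe set and array, on a linear scale with no detection calls. Software, background correction and scaling are not given in the sources used here. Gene names came from the array's annotation: 7018 probe sets had 1 symbol, 308 several and 1473 none. After 59 control probe sets were left out, values were taken as log2 of intensity plus 90 (near the median above 0, 359.3, divided by 4). The 40% with the lowest mean were dropped, which left 5244.

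The 6 arrays entered 1 limma model (version 3.58.1, R 4.3.3) with a mean for each group and variances moderated over probe sets (prior degrees of freedom 5.49, residual 3). Its p-values are two-sided and were adjusted over all 5244 by Benjamini and Hochberg. Errors are SE of the model. On simulated data of 5244 probe sets the test recovered 4.47% of 2-fold and 64.1% of 4-fold changes for RAS blockade, and 3.08% and 36.8% for ARB versus ACEI. The simulation changed 200 probe sets and gave all arrays the same independent spread. The real arrays differed in this, with array weights of 0.515 for the controls, 1.12 for ACEI and 1.73 for ARB. These shares therefore do not carry over directly to the real arrays. The number of arrays limits the precision. Python 3.11.15 ran the exact permutation tests and matplotlib 3.10.9 drew the plots.

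The genes, lists and tests were chosen with earlier results of these data known. Named were all contractile probe sets, up to 3 genes of largest absolute RAS blockade difference from 6 lists, and the 5 genes most like Acta2. Ttr, Slco1a4 and Slc2a1 were named after their values were seen. One gene of these lists is not reported here. Genes of several lists count under each. The alternatives were the offset, filter, normalization, replicate or run day block, array weights, only the groups compared and each array left out; a fit of the later run day and within-day values were added after the data were seen. The RefSeq promoter table (GRCr8) held 7 of the 10 genes.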

Additional observations from a re-analysis of the deposited data

Results flagged for a closer look

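The Myl9 probe set S77900_at stood out because the drugs lay on opposite sides of the controls: both ACEI arrays (6937 and 8922) were above both control arrays (1712 and 2372) and both ARB arrays (938 and 1017) were below them. Of all 5244 probe sets, 11.6% had both ACEI arrays above both controls and 16.8% had both ARB arrays below them. Both ARB arrays lay below both ACEI arrays in 25.3%. The share with this full order was not counted. For S77900_at, ARB minus ACEI was -2.899 on the log2 scale, with an adjusted p of 0.112 in limma for the difference itself. Its log2 values had a Pearson correlation of 0.595 with the beta-actin 3′ control over the 6 arrays. The second Myl9 probe set, S77900_g_at, had ACEI at 2920 and 3938 and ARB at 4441 and 4648, inside the range of its controls or just below it.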

How the results depend on the processing

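With 2 arrays per group, 1 control array decides many of these values, and on simulated data the test recovered few changes near 2-fold. For RAS blockade 0 contractile probe sets passed an adjusted p of 0.05 under every alternative run. The replicate numbers did not pair the arrays: deviations from group means correlated between -0.0453 and 0.0453. Each group holds 1 array of each replicate number, so a replicate block cannot change a log2 difference (ARB minus ACEI for Myl9 S77900_at, -2.899). It can change only the errors and p-values, and with it 0 contractile probe sets were called. For ARB versus ACEI 1 was called with an offset equal to the median (0.0763% of all probe sets), 1 with array weights (9.88%) and 2 with only the groups compared (7.74%). In the later run day alone 4 rather than 8 were lower. Tpm2 and Cald1, lower with all arrays (-1.16 and -1.28), had no value in that fit. The share of all probe sets lower there was not counted. Leaving out 1 array gave 0 to 1 calls with ACEI, 0 to 1 with ARB and 0 to 2 between the drugs. Calls with ACEI came without control 1 (4.88% of all called), with ARB without control 2 (1.74%) and between the drugs without control 1 or 2 (6.37% and 6.03%). These were M15474cds_s_at of Tpm1 (4.16 with ACEI without control 1, adjusted p = 0.0183; -3.20 with ARB without control 2, 0.0499), and between the drugs S77900_at and M15474cds_s_at. The cause was not tested.

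These log2 differences changed sign. With RAS blockade, Acta2 X06801cds_i_at was -0.070 with an offset equal to the median and -0.093 after quantile normalization, Acta2 X06801cds_f_at -0.074 after quantile normalization, and Tpm1 M34134_s_at 0.11 after quantile and 0.076 after cyclic loess normalization. With ARB, Cnn1 was 0.013 with the median offset, Myl9 S77900_g_at 0.067 and 0.033 and Cald1 -0.32 and -0.36 after quantile and cyclic loess normalization. A run day block gave 1.14 for X06801cds_i_at, 0.52 for X06801cds_f_at and 0.44 for M15474cds_s_at with ARB. The later run day alone gave 0.0034 (Tagln M83107_at) and 0.074 (Tpm1 M60666_s_at) with RAS blockade, 0.34 and 0.44 for these and -0.54 for Tpm1 X02412_at with ACEI, and 1.55, 0.53 and 1.35 for X06801cds_i_at, X06801cds_f_at and M15474cds_s_at with ARB.

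Leaving out each array in turn gave these ranges. With RAS blockade they were -1.62 to 1.68 for Acta2 X06801cds_i_at, -0.74 to 0.84 for X06801cds_f_at, -0.45 to 0.14 for Tpm1 M34134_s_at, -1.80 to 2.75 for M15474cds_s_at, -1.18 to 0.15 for Myl9 S77900_g_at and -0.33 to 2.07 for Cald1. With ACEI they were -1.49 to 1.80 for X06801cds_i_at, -0.43 to 1.15 for X06801cds_f_at, -1.26 to 0.17 for Tagln M83107_at, -1.12 to 0.047 for M34134_s_at, -0.35 to 0.20 for M60666_s_at, -0.39 to 4.16 for M15474cds_s_at, -0.34 to 0.77 for X02412_at, -0.96 to 0.12 for Tpm2 and -0.10 to 1.08 for Myh11 S61948_s_at. With ARB they were -1.75 to 1.55 for X06801cds_i_at, -1.04 to 0.53 for X06801cds_f_at, -1.58 to 0.35 for Actg2, -0.99 to 0.91 for Cnn1, -3.20 to 1.35 for M15474cds_s_at, -0.98 to 0.35 for S77900_g_at and -0.97 to 1.43 for Cald1. The change in the gap between rc_AA900769_s_at and X06801cds_i_at ranged from -3.11 to 0.43. Probe sets under the filter of an alternative have no value there.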
